A study of Mus musculus with 6 samples.

Results

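Laminins are trimeric proteins of basement membranes, each of an alpha, a beta and a gamma chain, and many of them polymerise into the first sheet of the membrane. The genes of 9 chains, Lama1 to Lama5, Lamb1 to Lamb3 and Lamc1, were taken as the rows of the expression table that carry one of these symbols and no other; all 9 chains were found, among 19938 genes with such a row, and each chain had a single row. They were measured in colon from 3 VilCre;Ihhflox/flox mice and 3 control littermates. In the mutants Ihh, which encodes the secreted ligand Indian hedgehog, is a floxed allele deleted by Cre recombinase under the villin promoter, active in intestinal epithelium and not in the gut wall beneath it. The controls are described as wild type and their alleles are not given further. Mutant and control mice that share a number came from the same litter, so there are 3 litters and 6 arrays (Affymetrix Mouse Gene 1.0ST, 1 per mouse), and pooling of animals is not mentioned. The design text places the harvest at postnatal day 12, while the growth protocol gives a span of day 9 to day 12.

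In the gut, laminin chains are made on both sides of the epithelial basement membrane and around muscle fibres, vessels and nerves. The gamma 1 chain (Lamc1) and the beta 1 chain (Lamb1) enter most trimers, joined to whichever alpha chain the tissue makes. The alpha 3 chain (Lama3) and the beta 3 chain (Lamb3) belong to the laminin of epithelial anchoring contacts. Cells bind laminin mostly through the globular end of the alpha chain, with integrins and dystroglycan as receptors. Hedgehog ligands from gut epithelium act on the mesenchyme below it, and the comparison asks what differs in the colon when the epithelium lacks this one.

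Of the 9 laminin chains, 6 fell in the mutant colon, 0 rose and 3 did not pass. The 6 that fell were the common chains Lamb1 and Lamc1 and the alpha chains Lama2, Lama3, Lama4 and Lama5, by between 1.36-fold and 1.83-fold. The test was a limma fit over 19938 genes with the litter as a block, and a gene passed at a Benjamini-Hochberg adjusted p under 0.05; 3.77% of all genes tested passed, 2.11% as lower and 1.66% as higher. At an unadjusted p under 0.05 in the same fit, 8 chains were lower and 0 higher, against 8.03% of all genes that were lower. The median change of the 9 chains was -0.51 on the log2 scale, beside 0.01 over all genes tested. In 8 of 9 chains the 3 mutants all lay below the 3 controls, which held for 9.78% of all genes, and the same 8 were lower in the mutant of all 3 litters, which held for 17.1% of all genes. Lamb3 was the exception. In whole tissue, fewer cells of a type and less RNA per cell cannot be told apart. Without litter 3 the number of chains that fell was 3, and it was 5 without litter 1 and 4 without litter 2. Of all 19938 genes, 299 fell without litter 3, 484 without litter 1 and 395 without litter 2, against 421 with all litters. In an ordinary paired test without the variance that limma shares across genes, 0 chains passed the adjustment and 4 had an unadjusted p under 0.05.

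Values are expression on the log2 scale, as made by the authors with RMA, and every change is mutant minus control with its standard error. The level of one gene cannot be set against that of another on these arrays. Array medians lay between 7.10 and 7.14, and correlations between arrays over all rows between 0.9855 and 0.9936. Hedgehog genes were read as a check of the labels. Ptch1, the hedgehog receptor, stood at 8.94 to 9.06 in mutants and 10.32 to 10.54 in controls, and Gli1 at 7.60 to 7.66 in mutants and 8.34 to 8.48 in controls; both fell, as did Hhip. Ihh itself was lower in each mutant (8.22 to 8.37, against 8.50 to 8.68 in controls) without passing (limma adjusted p = 0.139). Xist, which female cells express from the inactive X chromosome, was high in mutants 2 and 3 and in control 1 (11.92 to 12.03) and low in mutant 1 and controls 2 and 3 (5.83 to 6.41). It thus differed within every litter, and with its level as a covariate the same 6 laminin chains fell. That fit has 1 more term on the same 6 arrays, which leaves less from which to estimate the error. It called 1245 genes in all, against 751 without the covariate.

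Lamb1, the beta 1 chain, had the smallest p among the chains. It measured 10.32, 10.44 and 10.44 in mutants 1 to 3, against 11.15, 11.16 and 11.17 in controls 1 to 3. The controls were nearly identical, and the gap to the nearest mutant was many times the spread in either group. The means were 10.40 ± 0.07 in mutants and 11.16 ± 0.011 in controls (SD, n = 3 each), so Lamb1 fell 1.69-fold, by 0.76 ± 0.08 on the log2 scale (limma adjusted p = 0.00355). The drop was 0.83, 0.73 and 0.73 in litters 1, 2 and 3.

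Lamc1, the gamma 1 chain, read 10.19, 10.38 and 10.40 in mutants 1 to 3 and 11.05, 10.88 and 10.96 in controls 1 to 3. The groups did not overlap, and litter 1 held both the lowest mutant and the highest control. Lamc1 fell 1.56-fold, a change of -0.64 ± 0.10 (limma adjusted p = 0.0140), with litter differences of -0.87, -0.50 and -0.56.

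**Figure D1:**
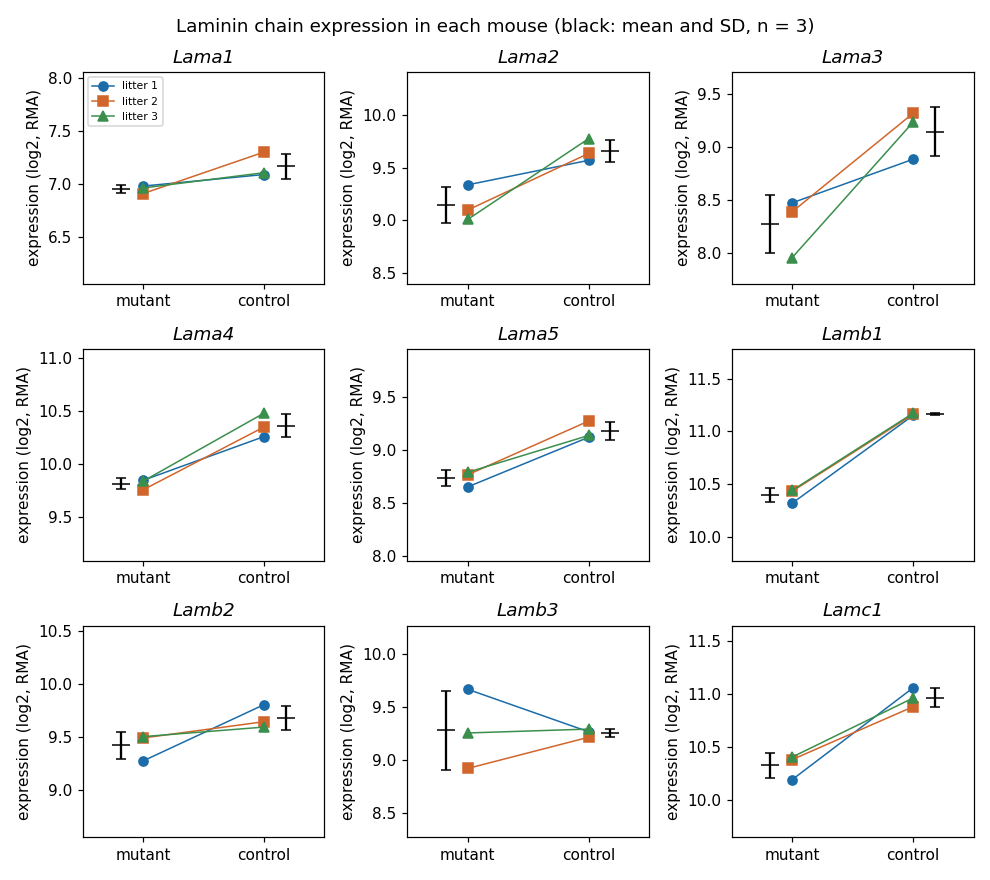
Expression of the 9 laminin chains in each mouse (vertical axes: log2 RMA value, 2 log2 units high in every panel). Lines join littermates, and black bars give the mean and SD of 3 mice. Mutants lie below controls in 8 panels; in the Lamb3 panel the mutants spread on both sides of the controls.

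Lama3, the alpha 3 chain of epithelial anchoring laminin, had the lowest mean change of the 9 chains with all litters in the fit. Without litter 3 (-0.67) and with Xist as a covariate (-0.74) that of Lamb1 was lower (-0.78 in both). Without litter 3 that of Lamc1 was lower as well (-0.68). Lama3 read 8.47, 8.39 and 7.95 in mutants 1 to 3, against 8.88, 9.32 and 9.23 in controls 1 to 3. All mutants were below all controls, but the litters differed in the size of the gap, with -0.41, -0.93 and -1.28 in litters 1, 2 and 3. Lama3 fell 1.83-fold (-0.87 ± 0.15, limma adjusted p = 0.0209).

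Lama4, the alpha 4 chain, is typical of vessel walls and other mesenchymal basement membranes. It measured 9.84, 9.75 and 9.84 in mutants 1 to 3, against 10.26, 10.35 and 10.48 in controls 1 to 3. The mutants were tightly grouped and clear of the controls, and the change was -0.55 ± 0.09 (1.46-fold lower; limma adjusted p = 0.0157, and 0.0597 without litter 3). Lama2, the alpha 2 chain of muscle and Schwann cell basement membranes, read 9.34, 9.10 and 9.01 in mutants, against 9.57, 9.63 and 9.77 in controls. The smallest gap was in litter 1 (-0.23) and the widest in litter 3 (-0.76). Lama2 fell by 0.51 ± 0.11, just past the threshold (limma adjusted p = 0.0491), and was not called without litter 3 (0.213) or without litter 2 (0.0537).

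Lama5, the alpha 5 chain of mature epithelial and vessel basement membranes, read 8.65, 8.76 and 8.79 in mutants and 9.12, 9.27 and 9.14 in controls. The groups were apart by more than the spread in either, and the litter differences were alike at -0.47, -0.51 and -0.35. Lama5 fell 1.36-fold (-0.44 ± 0.08, limma adjusted p = 0.0286), and the adjusted p was between 0.0571 and 0.0907 when any litter was left out.

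The 3 chains that did not pass were not alike. Lama1, the alpha 1 chain of embryonic and some crypt basement membranes, read 6.98, 6.91 and 6.96 in mutants, against 7.09, 7.30 and 7.10 in controls, a change of -0.21 ± 0.09 with a 95% interval from -0.42 to -0.01 (limma adjusted p = 0.316). Lamb2, the beta 2 chain found in muscle, vessel and synaptic basement membranes, read 9.27, 9.49 and 9.50 in mutants, against 9.80, 9.64 and 9.59 in controls. Its gap was mostly in litter 1, with -0.53, -0.15 and -0.09 in litters 1, 2 and 3, and the change was -0.26 ± 0.10 (limma adjusted p = 0.295). Both genes were lower in the mutant of each litter.

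Lamb3, the beta 3 partner of Lama3, read 9.67, 8.92 and 9.25 in mutants and 9.26, 9.21 and 9.29 in controls. The controls were within 0.1 of each other, while mutant 1 lay above and mutant 2 below them. Its change was 0.02 ± 0.13 with a 95% interval from -0.28 to 0.32 (limma adjusted p = 0.967), and its sign turned without litter 1 (-0.17) and with array weights (-0.070). Lamc3, the gamma 3 chain, is outside the 9 chains and read 7.77, 7.60 and 7.68 in mutants, against 8.07, 7.76 and 7.85 in controls (-0.21 ± 0.08, limma adjusted p = 0.279).

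**Figure D2:**
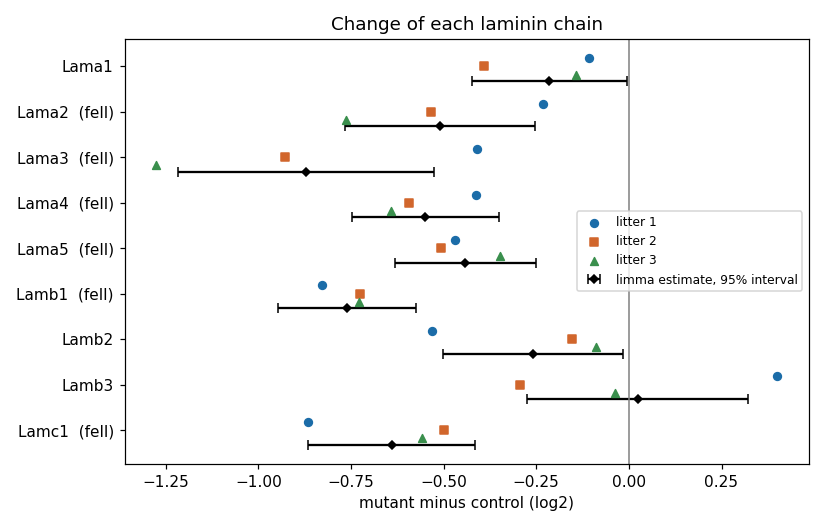
Change of each laminin chain, mutant minus control (horizontal axis, log2). Coloured points are the 3 litters, and black diamonds with bars are the limma estimates with 95% intervals. Of 27 litter differences, 26 are below 0; the one above it is Lamb3 in litter 1, at 0.40.

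Whether chains of one class changed unequally was tested on the log2 difference between 2 chains within each array, for 10 pairs of alpha chains, 3 pairs of beta chains and Lamc1 with Lamc3. This was an exact permutation test, two-sided, of 3 mutants against 3 controls, which cannot go below p = 0.10. It left the litter pairing out, and the SE of each change between chains is that of unpaired groups. The difference between Lamb1 and Lamb2 was smaller in mutants than in controls by 0.50, with a change of -0.50 ± 0.08 (exact permutation p = 0.10, adjusted over 14 pairs 0.20). It moved this way in 3 of 3 litters, so Lamb1 dropped more than Lamb2 in each. Lamb1 also dropped more than Lamb3 in each litter (-0.78 ± 0.25), and Lamc1 more than Lamc3 (-0.43 ± 0.12), with the same p and adjusted p from the exact permutation test. Lama3 dropped more than Lama2 in 3 of 3 litters, and the difference between them, Lama2 minus Lama3, was higher in mutants by 0.36 ± 0.15, again at exact permutation p = 0.10. Set against Lama4 and Lama5, Lama3 dropped more in 2 of 3 litters (Lama3 minus Lama4 by -0.32 ± 0.20, exact permutation p = 0.30, and Lama3 minus Lama5 by -0.43 ± 0.22, exact permutation p = 0.20). In all, 7 of 14 pairs reached this smallest p and 0 passed the adjustment; in this design none could have passed a threshold of 0.05. Between Lama2 and Lama4 the change was 0.04 ± 0.09, and between Lama4 and Lama5 -0.11 ± 0.10 (exact permutation p = 0.70 and p = 0.40).

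**Figure D3:**
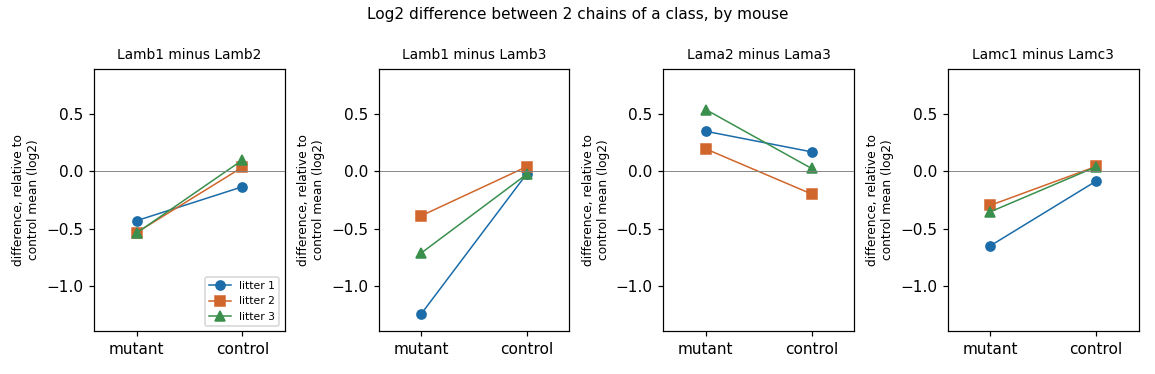
Log2 difference between 2 chains of a class in each mouse, set to 0 at the control mean (vertical axes). Lines join littermates. The mutants lie below the controls for Lamb1 minus Lamb2, Lamb1 minus Lamb3 and Lamc1 minus Lamc3, and above them for Lama2 minus Lama3.

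The chains also grouped by which litter showed the widest gap. Lamb1, Lamb2 and Lamc1 had their largest drop in litter 1, and Lama2, Lama3 and Lama4 had theirs in litter 3. Lama1 and Lama5 dropped most in litter 2, where Lamb3 also had its lowest difference (-0.29). With 1 pair of mice per litter, this is a description of these 6 animals.

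Upstream sequence was searched for 5 of the 9 genes in a RefSeq table on assembly GRCm38.p6, as windows around annotated starts. No window was given for Lama1, Lama4 or Lamc1, and that of Lama3 was left out of the search. The 250 bases before each start were searched on both strands for the Gli motif GACCACCCA, the Fox motif TGTTTAC, the TATA box TATAAA and the GC box GGGCGG. A start can lie inside the annotated span of its gene. Of the 250 bases, 205 for Lama5, 103 for Lamb1 and 235 for Lamb2 precede that span. The windows of Lama2 and Lamb3 lie mostly or wholly within it. The windows of Lama2, Lama5, Lamb1, Lamb2 and Lamb3 held 0 matches to the Gli, Fox and TATA motifs, which are present in 0.225%, 3.17% and 12.4% of all 32851 such windows. The GC box, the site of Sp1-type factors, occurred 4 times in the Lama5 window and 2 times in that of Lamb1 and was not found in the others, against 32.7% of all windows with at least 1. The bases that precede the annotated spans of Lama5 and Lamb1 are shown, since both genes fell and both windows carry the box. Capitals mark GC boxes on either strand. Both boxes of Lamb1 and 1 box of Lama5 lie past the stretch printed, within the annotated span of the gene. No matches overlapped, and a match is a description of the letters alone.
Lama5 (chr2:180225905-180226109, minus strand): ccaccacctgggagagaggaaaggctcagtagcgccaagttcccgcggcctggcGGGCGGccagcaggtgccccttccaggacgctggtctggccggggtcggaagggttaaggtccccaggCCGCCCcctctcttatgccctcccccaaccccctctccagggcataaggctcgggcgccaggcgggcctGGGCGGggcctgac
Lamb1 (chr12:31265043-31265145, plus strand): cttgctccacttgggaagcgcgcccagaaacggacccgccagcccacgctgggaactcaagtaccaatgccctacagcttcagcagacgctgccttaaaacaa

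Of 22 genes of other basement membrane proteins, several of which bind laminin, 10 fell, 0 rose and 12 did not pass, with a median change of -0.47. At an unadjusted p under 0.05, 15 were lower and 0 higher. Over all genes tested, 2.11% fell and 8.03% were lower at that unadjusted p. The number of these basement membrane genes that fell was 7 without the litter block, where Col4a1, Col4a2 and Nid1 did not pass. It was 8 with the litter as a random block, where Col4a2 and Nid1 did not. Nid1, nidogen 1, which links the gamma 1 chain to the collagen IV network, read 9.84, 10.24 and 10.31 in mutants and 10.55, 10.71 and 10.62 in controls. It fell by 0.50 ± 0.10 (limma adjusted p = 0.0345, and 0.0753 without litter 1). Nid2 (-0.35 ± 0.11, adjusted p = 0.154) and the heparan sulphate proteoglycan genes Hspg2, perlecan (-0.45 ± 0.12, adjusted p = 0.0854), and Agrn, agrin (-0.17 ± 0.09, adjusted p = 0.422), did not pass in the limma fit.

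Of the 6 collagen IV genes 4 fell. The ubiquitous pair Col4a1 and Col4a2 fell by 0.65 ± 0.11 and by 0.60 ± 0.13, and Col4a5 and Col4a6, which make the collagen IV of smooth muscle basement membranes, fell by 0.68 ± 0.08 and by 0.88 ± 0.10. Col4a6 read 7.22, 7.23 and 7.39 in mutants, against 8.29, 8.14 and 8.06 in controls, a clear gap. Col4a3 and Col4a4 stood at -0.11 ± 0.09 and 0.05 ± 0.08 and did not pass. Fras1 and Frem2, whose products form a complex beneath embryonic epithelia, fell by 0.74 ± 0.08 and by 0.96 ± 0.09. Egflam, pikachurin, a dystroglycan ligand, fell by 0.81 ± 0.09, and Pxdn, the peroxidasin that crosslinks collagen IV, by 0.75 ± 0.08. Col15a1, a collagen of muscle and vessel basement membranes, fell by 0.87 ± 0.09. The largest limma adjusted p among these genes called lower was 0.0444, for Col4a2. That of Col4a2 was 0.0643 without litter 1 and 0.0541 with quantile normalization, where it did not pass.

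**Figure D4:**
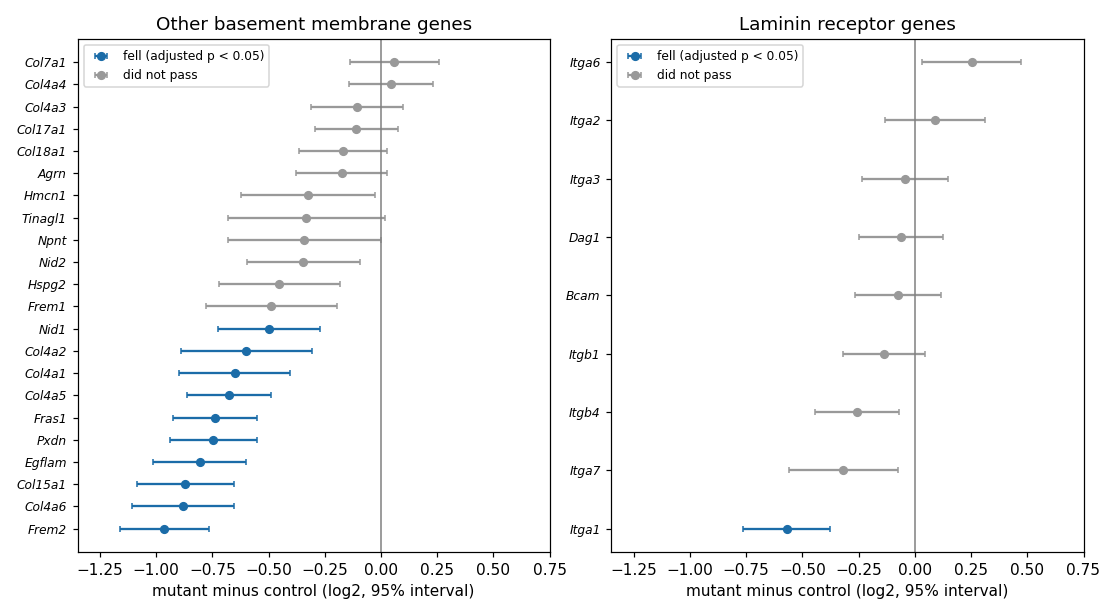
Change of 22 other basement membrane genes (left) and 9 laminin receptor genes (right), mutant minus control (log2), with 95% intervals from limma. Blue points fell and grey points did not pass: 10 of 22 on the left and 1 of 9, Itga1, on the right are blue.

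Among the 9 laminin receptor genes 1 fell, 0 rose and 8 did not pass, with a median change of -0.08. At an unadjusted p under 0.05, 3 were lower and 1 higher. Beside these counts, 2.11% of all genes fell and 8.03% were lower at that unadjusted p. Itga1, the alpha 1 integrin of stromal and muscle cells, which binds collagen IV and laminin, read 10.19, 10.09 and 10.30 in mutants and 10.73, 10.77 and 10.79 in controls. All mutants were lower, by 0.57 ± 0.08 (limma adjusted p = 0.0123). Itga7, the laminin integrin of muscle, stood at -0.32 ± 0.10 (limma adjusted p = 0.178), and Itgb4, the hemidesmosome integrin of epithelium, at -0.26 ± 0.08 (limma adjusted p = 0.152). Itga6, the epithelial laminin integrin that pairs with it, stood at 0.25 ± 0.10 in the other direction (limma adjusted p = 0.255). Itga2 (0.09), Itga3 (-0.04), Itgb1 (-0.14), Bcam, a receptor of the alpha 5 chain (-0.08), and Dag1, dystroglycan (-0.06), did not pass, each with an SE of 0.08 to 0.10.

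Of 11 measured genes of the dystrophin and dystroglycan complex, which ties laminin to the cytoskeleton of muscle, 2 fell, 0 rose and 9 did not pass. At an unadjusted p under 0.05, 6 were lower and 0 higher. The shares over all genes were 2.11% that fell and 8.03% lower at that unadjusted p. Dmd, dystrophin, read 8.69, 8.49 and 8.44 in mutants and 8.93, 9.12 and 9.27 in controls and fell by 0.57 ± 0.12 (limma adjusted p = 0.0402, and 0.146 without litter 3). Cav1, caveolin 1, which is also abundant in endothelium, fell by 0.69 ± 0.09 (limma adjusted p = 0.00874). Utrn, the related utrophin, stood at 0.07 ± 0.10. Among 4 measured further genes of the laminin family, Lamc3 and the netrins Ntn1, Ntn4 and Ntn5, 0 fell and 0 rose in the limma fit; at an unadjusted p under 0.05, 1 was lower and 1, Ntn5, higher.

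Several cell types of the colon wall make laminins. Of 10 smooth muscle markers 6 fell and 0 rose (median -0.53), and their summed values, on the linear scale, were 31682 to 40026 in mutants, against 45805 to 48146 in controls. Such a sum is set mostly by the brightest rows of its list and is not a measure of the amount of a cell type. Of 10 blood endothelium markers 6 fell and 0 rose (median -0.43), with sums of 2869 to 3167 in mutants and 3716 to 4411 in controls. Of 8 fibroblast markers 1 fell and 0 rose, with overlapping sums (26737 to 36705 in mutants and 35165 to 37506 in controls). Of 6 pericyte markers 1 fell and 0 rose, with sums of 3377 to 3713 in mutants and 4154 to 4251 in controls. Of 10 epithelial markers 0 fell and 1 rose (Krt18), with sums of 34335 to 36094 in mutants and 33016 to 36058 in controls. At an unadjusted p under 0.05 in the limma fit, 9 smooth muscle, 10 endothelial, 3 pericyte and 2 fibroblast markers were lower and 0 higher. Of the epithelial markers, 1 was lower and 1 higher. Over all genes tested, 2.11% fell, 1.66% rose and 8.03% were lower at that unadjusted p. The part of these cell types in the laminin values was not tested.

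By litter, the laminin median was -0.41, -0.51 and -0.56 in litters 1, 2 and 3. The smooth muscle median was lowest in litter 1, at -0.75, -0.54 and -0.30 in the same order, and the endothelial median was -0.37, -0.42 and -0.44. The epithelial median was 0.05, -0.07 and 0.02, close to that of all genes.

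**Figure D5:**
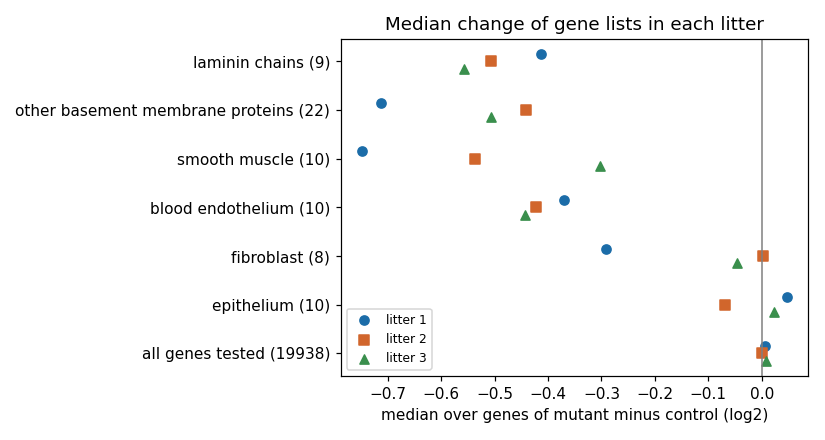
Median change of gene lists in each litter, mutant minus control (horizontal axis, log2; number of genes in brackets). The laminin, basement membrane, smooth muscle and endothelial medians are below 0 in all 3 litters, and those of epithelium and of all genes lie near 0.

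Other markers bear on what the samples held. Of 7 measured colon epithelium markers 3 fell (Aqp8, Car4 and Saa1) and 0 rose; at an unadjusted p under 0.05, 3 were lower and 3 higher. The 3 higher ones were the colonocyte carbonic anhydrase gene Car1 (0.63), the mucin gene Muc2 (0.35) and the chloride exchanger gene Slc26a3 (0.51), with limma adjusted p = 0.0570, 0.0583 and 0.0755. Of 10 small intestinal markers 0 fell and 2 rose (Fabp2 and Slc10a2), of 6 neutrophil markers 0 fell and 4 rose, and of 6 mesothelial markers 0 fell and 1 rose. At an unadjusted p under 0.05 in the limma fit, 5 small intestinal, 4 neutrophil and 3 mesothelial markers were higher and 0 lower. The mean change was above 0 in 8 of the small intestinal markers and in all 6 of both other lists. Over all genes tested, 2.11% fell and 1.66% rose. Of 8 skeletal muscle, 5 adipocyte, 5 measured glial and 5 pancreatic markers none passed in the limma fit; at an unadjusted p under 0.05, 2 skeletal muscle markers and 1 glial marker were lower and 1 pancreatic marker was higher.

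Across the 6 arrays, the 5 genes whose values followed Lamb1 most closely were Pxdn, Dzip1, Col4a5, Cpxm2 and Foxl1, with Pearson correlations of 0.994 to 0.998. For Lamc1 they were Id4, Rcn1, Foxl1, Jcad and Arhgef25 (0.991 to 0.997). Each of these correlations takes in the difference between mutants and controls, and they describe these 6 arrays. Foxl1, a forkhead factor of subepithelial mesenchyme, stood on both lists and fell by 0.49 (limma adjusted p = 0.0217).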

How the data were processed

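Total RNA of whole colon from 3 mutant and 3 control mice had been extracted with Trizol and hybridised to arrays, per the labels' protocols. The deposited values are on the log2 scale and had been made by the authors with RMA, per the submitters' processing notes (version and genome build not given in the sources used here). Of 35557 rows, the platform annotation gave 21789 a single symbol, and 0 further per-sample columns were present. The row with the highest mean stood for a gene with several, which left 19938 genes.

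Groups were compared with the limma package, version 3.58.1, under R 4.3.3 (eBayes on lmFit, two-sided, Benjamini-Hochberg adjustment over 19938 genes, threshold 0.05). The litter was a fixed block, since the design text calls the samples paired littermates. As a check, each mouse was set against its own group mean; littermates then correlated by 0.0128, 0.00516 and 0.0613, so it is the labels that pair them. Residual degrees of freedom were 2 per gene, plus 5.85 from the shared prior. Scripts were tested on simulated data. With 3 mice per group, the number of arrays limits precision.

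The laminin genes and all gene lists were chosen with earlier results of these data known. Named genes are the chains, Lamc3, 4 hedgehog genes, the receptors, each member past the threshold of the lists of basement membrane, dystrophin complex and other laminin family genes, and the 5 genes most correlated with Lamb1 and with Lamc1; others were named after their values were seen. Alternatives were no litter block, a random litter block, a trended robust prior, array weights, a filter on the dimmest 30% of genes, median centring, quantile normalization, the mean of a gene's rows, no shared variance, Xist as a covariate, and each litter left out.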

Additional observations from a re-analysis of the deposited data

How the results depend on the processing

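The count of 6 laminin chains that fell was the same under 8 of 13 alternatives, including the model with no replicate block (6 chains, 638 genes in all) and the random block (6 chains, 803 genes). Lamb1, Lamc1 and Lama3 were called under 12 of 13 alternatives, the exception being the paired test without the shared variance, which has 2 residual degrees of freedom. That test called 0 genes of 19938, against 751 with the shared variance, and 0 laminin chains, receptors, dystrophin complex and basement membrane genes, while 1969 genes, 4 chains, 3 receptors, 2 complex genes and 8 basement membrane genes had an unadjusted p under 0.05; its adjusted p was 0.548 for Lama2 (-0.51), 0.536 for Lama3 (-0.87), 0.460 for Lama4 (-0.55), 0.454 for Lama5 (-0.44), 0.411 for Lamb1 (-0.76) and 0.482 for Lamc1 (-0.64). Array weights called 1246 genes and 4 complex genes, and the Xist covariate 1245 genes. Other basement membrane genes called numbered 7 to 13 under the alternatives other than that paired test. The cause of these shifts was not tested. Lama2 was also lost with the mean of a gene's rows (-0.51, adjusted p = 0.0508). Lamb3 turned in sign with array weights (-0.070) and without litter 1 (-0.17). Leaving out each litter gave 3 to 5 chains, 1 to 3 complex genes and 8 to 12 of 14 chain pairs at the smallest p; with 2 mice a group that p is 0.333, so these counts cannot be set against the 7 at 0.10 with all litters. Changes then ran from -0.27 to -0.13 for Lama1 (-0.21 with all litters, -0.13 without litter 2), from -0.34 to -0.12 for Lamb2 (-0.26 with all litters, -0.12 without litter 1), from -0.65 to -0.38 for Lama2, from -0.62 to -0.50 for Lama4, from -0.49 to -0.41 for Lama5 and from -0.17 to 0.18 for Lamb3. No background level was used, so signal over background sets no bound here.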
